A study of Mus musculus with 9 samples.

Results

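The genes described here encode the proteasome, the large protease that degrades ubiquitin-tagged proteins, together with its assembly factors, activators and inhibitor. They are the rows of the deposited gene table whose symbol starts with Psm, a letter from a to g and a digit, without the interferon-inducible subunit genes Psmb8, Psmb9 and Psmb10. That rule found 47 of 21352 genes, and 46 of them were abundant enough to test. By their known place in the particle, 7 encode the alpha subunits and 7 the beta subunits of the core, 9 the base, 8 the lid, 7 assembly factors and 5 activators or inhibitors. The others are Psmc3ip, Psme2b and Psme3ip1, which match the rule by symbol but are no subunits, and Psmb11, a core subunit gene known from the thymus, which reached at most 0.0068 FPKM in a library and was not tested.

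RNA was sequenced from HT-22, an immortalized mouse hippocampal line of wild-type genotype, in 3 groups of 3 libraries. B-HTL cells received 10 mM betaine for 4 hours and then 2 mM homocysteine thiolactone (HTL) for 24 hours. HTL cells received the same thiolactone with no betaine before it. CON cells are the controls, and what they received is not given in the sources used here. HTL is a reactive thioester made from homocysteine and known to modify protein lysines, and betaine is a methyl donor and an osmolyte. With no library of betaine alone analysed here, what betaine does by itself cannot be told apart from what it does to cells given HTL. The line is labelled as neuronal, but of 8 neuron marker genes listed in the table only Tubb3 (mean 9.52 FPKM) and Dlg4 reached a mean of 0.5 FPKM, and Map2, Mapt, Rbfox3, Syt1, Camk2a and Slc17a7 did not. The mesenchymal marker Vim stood at 883 FPKM, and the summed level of 5 fibroblast and mesenchymal markers was 862 to 888 FPKM in B-HTL, 897 to 919 FPKM in HTL and 1231 to 1264 FPKM in CON libraries. That sum is mostly Vim, and Pdgfra, on the same list, went the other way, at 5.31 FPKM in B-HTL, 4.97 FPKM in HTL and 2.65 FPKM in CON cells. Col1a2 and Lum, also on that list, did not reach a mean of 0.5 FPKM. Of the astrocyte, microglia, oligodendrocyte and endothelium lists 1 marker each passed 0.5 FPKM, and Gfap, Aif1, Mbp and Pecam1 did not. In B-HTL, HTL and CON cells the astrocyte marker Gja1 averaged 141, 121 and 112 FPKM, and the microglia marker Tmem119 5.51, 8.40 and 8.39 FPKM. In the same order Cspg4, a marker of oligodendrocyte precursors, averaged 7.59, 5.66 and 6.90 FPKM, and Flt1, of endothelium, 2.28, 2.74 and 3.17 FPKM. These markers thus differed between the groups in both directions. The part of these differences in the results was not tested, and in bulk RNA fewer cells of a type and less RNA per cell cannot be told apart.

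The core of the proteasome is a barrel of alpha and beta rings, and only the subunits encoded by Psmb5, Psmb6 and Psmb7 cut peptide bonds in its constitutive form. A regulatory particle caps the barrel. Its base holds a ring of ATPases that unfold substrates (Psmc1 to Psmc6), and its lid holds the deubiquitinase Psmd14. Dedicated chaperones build the alpha ring (Psmg1 to Psmg4) and the base (Psmd5, Psmd9, Psmd10) and are not part of the finished particle. Subunit genes are known to be induced together by the transcription factor encoded by Nfe2l1 when proteasome activity falls short. In neurons, as in other cells, the proteasome clears damaged and misfolded proteins.

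All values are FPKM as deposited, which scale reads by gene length and library size. The totals behind them, recovered from the steps of low values, were 33305472 to 39464509 reads per library, and a tested proteasome gene held 560 to 28273 reads in a library. Counting alone then gives an SD of 4.23% for the fewest and 0.595% for the most reads, while the spread between the 3 libraries of a group had a median of 2.60% over genes and groups. It was highest for Psmc3ip in B-HTL cells, at 11.1%. Across genes, the correlation between replicates was 0.9979 to 0.9985, a measure that does not show shifts of a few percent. The summed level of the core, base and lid genes varied most between B-HTL libraries. Its SD was 65.9 FPKM there, 21.1 FPKM in HTL and 19.1 FPKM in CON libraries.

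In level, the core, base and lid genes had higher medians than the assembly genes. Means over the 9 libraries ran between 110.5 FPKM (Psmb5) and 261 FPKM (Psmb1) in the beta ring, with a median of 205 FPKM. Alpha subunit genes had a median of 143 FPKM, base genes 107 FPKM and lid genes 96.7 FPKM. Assembly genes had a median of 29.6 FPKM and ran between Psmd9, at 18.8 FPKM, and Psmd5, at 60.5 FPKM. Among activators and inhibitors, Psme2 and Psme1, which form the interferon-inducible activator ring, stood at 110.2 and 104 FPKM, while Psmf1, whose product inhibits the core in vitro, was lowest at 14.4 FPKM. Psma3 was the lowest subunit gene, at 31.0 FPKM against 112 to 198 FPKM for the other alpha genes. FPKM divides by gene length, and the length that its values imply was 3325 bases, against 946 to 1591 bases for the other alpha genes. The part of that length in the low level was not tested.

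**Figure D1:**
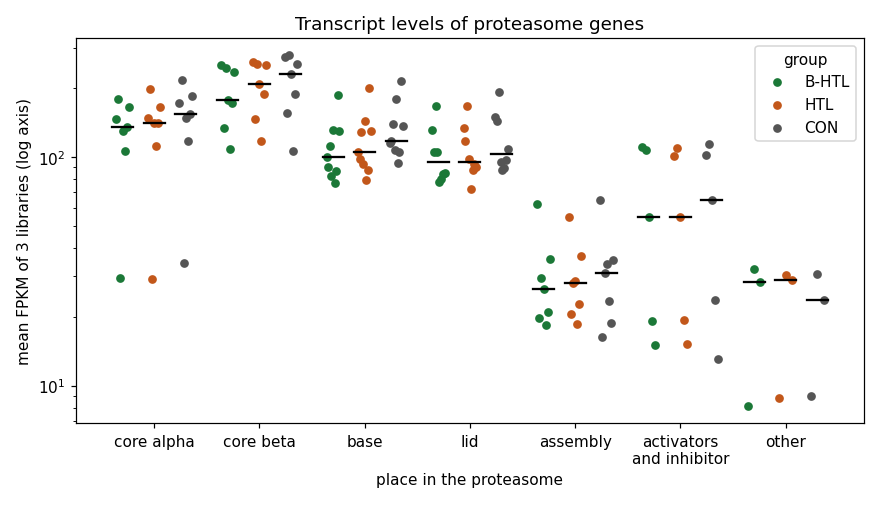
Mean FPKM of 3 libraries (log axis) of each tested proteasome gene in B-HTL, HTL and CON cells, by place in the proteasome, with the median of each group of genes as a line. Apart from Psma3, core, base and lid genes lie at or above 72.2 FPKM (Psmd11 in HTL cells), and assembly genes at or below 64.5 FPKM (Psmd5 in CON cells).

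Promoters were read from RefSeq (GRCm38.p6) as windows of 250 bases before to 50 bases after a start site, which 40 of the 47 genes have. The antioxidant response element core TGACNNNGC, which the factors encoded by Nfe2l1 and Nfe2l2 are known to bind, was searched on both strands. It lay in 6 of 44 windows of proteasome genes (13.6%), near the 12.4% of all 32851 windows in the table and the 14.4% of windows of the genes tested. The 6 genes were Psmb5, Psmb6, Psmc6, Psmd9, Psmd12 and Psme4. CCAAT, the box known for binding NF-Y, lay in 15 of 44 windows (34.1%), against 37.4% of all windows. By gene it was in 15 of 40 (37.5%), against 41.1% of all genes with a window and 43.9% of the genes tested. It was in 5 of 7 alpha, 1 of 4 beta, 3 of 8 base, 1 of 6 lid, 1 of 6 assembly and 1 of 5 activator and inhibitor genes. The 250 bases before the start are shown for Psmb5, Psmd9 and Psmc6. Psmb5 and Psmd9 were called higher in HTL than in CON cells, and the base ATPase gene Psmc6 lower. The Psmb5 call was lost in 6 of 16 alternatives. Of the other genes with the element, Psme4 was called lower, and Psmb6 and Psmd12 did not pass. The bases are written 5′ to 3′ on the gene's strand, with capitals marking the match.
Psmb5, chr14:54617996-54618245, minus strand: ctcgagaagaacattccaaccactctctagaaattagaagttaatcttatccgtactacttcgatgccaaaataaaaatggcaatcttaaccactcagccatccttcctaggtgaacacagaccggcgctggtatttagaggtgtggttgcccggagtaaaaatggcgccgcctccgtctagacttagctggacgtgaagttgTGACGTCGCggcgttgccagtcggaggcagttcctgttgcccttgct
Psmd9, chr5:123227940-123228189, plus strand: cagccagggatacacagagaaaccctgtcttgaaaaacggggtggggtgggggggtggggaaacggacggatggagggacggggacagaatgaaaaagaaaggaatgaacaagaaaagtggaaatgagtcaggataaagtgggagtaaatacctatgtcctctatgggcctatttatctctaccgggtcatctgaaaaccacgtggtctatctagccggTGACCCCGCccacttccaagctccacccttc
Psmc6, chr14:45329574-45329823, plus strand: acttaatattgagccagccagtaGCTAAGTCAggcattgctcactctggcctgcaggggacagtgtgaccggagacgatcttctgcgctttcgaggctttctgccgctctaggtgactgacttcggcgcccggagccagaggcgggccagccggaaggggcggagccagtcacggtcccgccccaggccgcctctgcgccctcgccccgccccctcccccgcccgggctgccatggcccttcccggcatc
The match reads TGACGTCGC in Psmb5 and TGACCCCGC in Psmd9, starting 47 and 31 bases before the start site. In Psmc6 it is on the opposite strand, where it reads TGACTTAGC, with its capitals starting 227 bases before the start. Psmb6 holds TGACGGAGC directly before the start site of its window, on the gene's strand. The 250 bases before that start site end at 70525356, while the gene itself is listed from 70525324. By these positions the match lies inside the listed gene. A match describes the letters of the window and is not a binding site. The median log2 fold change in HTL against CON was -0.016 over the 6 genes with the element and -0.13 over the 33 tested genes with a window without it. Both sets were spread widely, between -0.28 (Psme4) and 0.31 (Psmd9) with the element and between -0.33 (Psmc5) and 0.29 (Psme3ip1) without it. In B-HTL against HTL the order was the other way, at -0.082 with the element and -0.054 without it. In B-HTL against CON the medians were -0.143 and -0.185. For CCAAT the medians in HTL against CON were -0.136 over 14 tested genes with it and -0.069 over 25 without it. They were -0.041 and -0.076 in B-HTL against HTL, and -0.199 and -0.158 in B-HTL against CON.

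HTL against CON asks what the thiolactone changed. Most subunit genes of the core, base and lid were lower in HTL cells by small amounts. Summed over these 31 genes, the level was 4300, 4259 and 4271 FPKM in HTL libraries, against 4663, 4670 and 4699 FPKM in CON libraries, and the groups did not overlap. Psmc5, an ATPase of the base, was lower by the most of all, while Psmd9, a chaperone of the base, was higher by the most. Of 46 tested genes 29 fell, 5 rose and 12 did not pass the test. Over all 11012 genes tested, 60.3% passed, 39.8% as higher and 20.4% as lower in HTL cells. The share of proteasome genes that fell was 63.0%, and their median log2 fold change was -0.13, beside 0.069 over all genes. All 3 HTL libraries lay below all 3 CON libraries for 30 genes and above them for 4, beside 23.2% and 44.0% of all genes. The call split depends on scaling. Among all calls 66.1% were higher as deposited, 46.5% with median-of-ratios size factors and 52.2% with quantile normalization, and with these 2 scalings 37 and 26 proteasome genes fell and 4 and 6 rose.

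**Figure D2:**
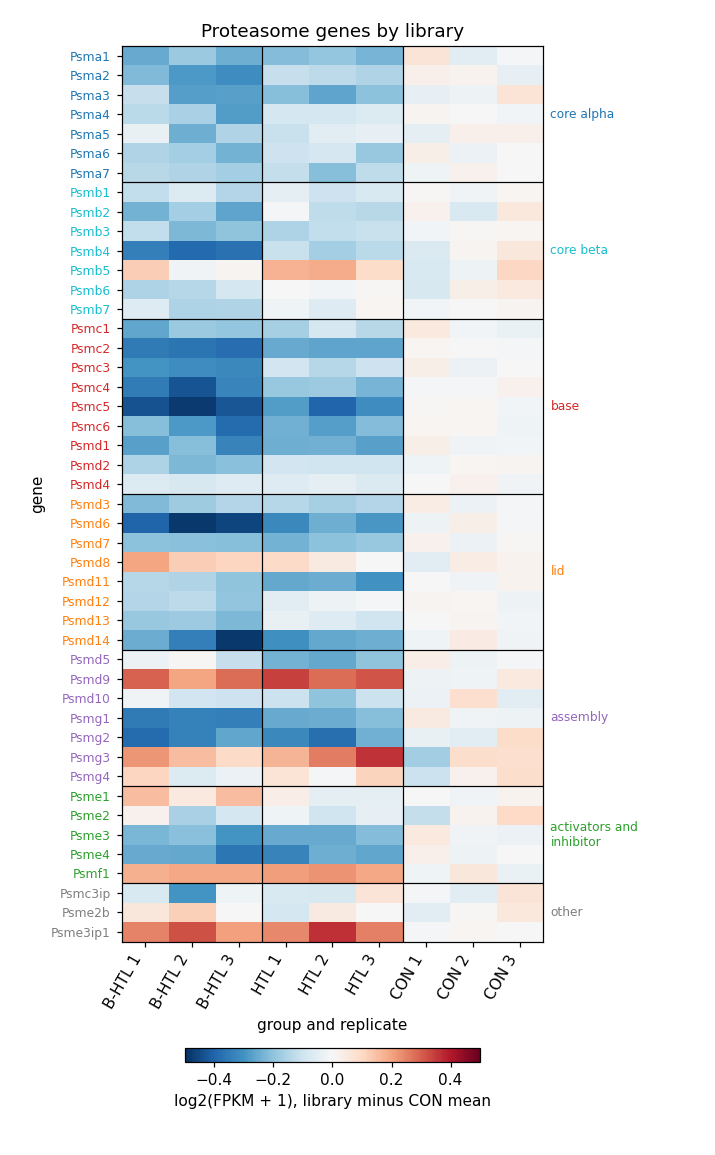
log2(FPKM + 1) of each tested gene (rows, by place in the proteasome) in each library (columns), minus the mean of the 3 CON libraries. Blue is lower and red higher than the CON mean. Base rows are blue in all B-HTL and HTL libraries, and Psmd9, Psmf1 and Psme3ip1 are red in them.

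All 9 base genes fell, with a median of -0.20. Psmc5 (chromosome 11, 106256185 to 106263112, GRCm38) had 148, 136 and 144 FPKM in HTL libraries, against 180.2, 181 and 178 FPKM in CON libraries (log2 fold change -0.33 ± 0.031 SE, adjusted p = 4.67e-06 by limma over all genes). Every HTL library lay far below every CON library. The ATPase gene Psmc2 was next, at 97.5 ± 0.50 FPKM in HTL and 117 ± 0.76 FPKM in CON cells (SD, n = 3 each; log2 fold change -0.26). Psmd1, a scaffold of the base, differed by -0.25 and Psmc6 by -0.24 on the log2 scale. The fall was small for Psmd2, the other large scaffold (-0.10), and smallest for Psmd4, a ubiquitin receptor, at 130.0 ± 1.08 FPKM in HTL and 136 ± 1.80 FPKM in CON cells (-0.062, adjusted p = 0.025). The Psmd4 call did not hold when HTL replicate 1 (0.0623), HTL replicate 3 (0.0817) or CON replicate 2 (0.0998) was left out, and with quantile normalization (0.724). The 8 other base genes kept theirs in all 16 alternatives.

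In the lid 6 of 8 genes fell and none rose, with a median of -0.18. Psmd6 (chromosome 14, 14112185 to 14120945), a scaffold of the lid, had 114, 121 and 117 FPKM in HTL libraries, against 141, 146 and 143 FPKM in CON libraries (log2 fold change -0.29 ± 0.030 SE, adjusted p = 1.08e-05). The groups were far apart. Psmd14, the deubiquitinase that cuts ubiquitin chains off substrates, fell to 89.9 ± 2.05 FPKM in HTL cells, against 108 ± 2.80 FPKM in CON cells (-0.27, adjusted p = 0.000618), and its partner Psmd7 to 166 ± 2.66 FPKM in HTL cells, against 192 ± 3.68 FPKM in CON cells (-0.21). Psmd11 differed by -0.27 and Psmd3 by -0.15. Psmd13 was at -0.067 (adjusted p = 0.0366), a call lost without HTL replicate 2 (0.0783) or 3 (0.146), without CON replicate 1 (0.0742), 2 (0.110) or 3 (0.0520), and with quantile normalization (0.416). Psmd8 and Psmd12 did not pass, with intervals of -0.029 to 0.12 and -0.087 to 0.028 at 95%. With quantile normalization Psmd8 passed as higher (adjusted p = 0.0411), and with size factors Psmd12 passed as lower (0.00459).

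In the alpha ring 5 of 7 genes fell and none rose (median -0.13). Psma3 (chromosome 12, 70969283 to 70995877) fell most, with 29.5, 28.4 and 29.7 FPKM in HTL libraries, against 33.4, 33.7 and 36.1 FPKM in CON libraries (log2 fold change -0.23 ± 0.045 SE, adjusted p = 0.00118). Its groups did not overlap, nor did those of Psma1 (-0.21), Psma7 (-0.15), Psma2 (-0.13) and Psma6 (-0.13). Psma4 missed the threshold at -0.082 (adjusted p = 0.0557) and passed it as lower without B-HTL replicate 1 (0.0352) or 3 (0.00573), in a fit of only the 2 groups (0.00571), with the filter at 5 FPKM (0.0492) and with size factors (0.00242). Psma5 did not pass (-0.17 to 0.030 at 95%), but did with size factors (0.0109).

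The beta ring was mixed. Psmb4 (chromosome 3, 94884324 to 94886958), a non-catalytic subunit gene, fell most, with 212, 204 and 209 FPKM in HTL libraries, against 218, 232 and 239 FPKM in CON libraries (log2 fold change -0.14 ± 0.033 SE, adjusted p = 0.00345). The lowest CON library lay above the highest HTL library. Psmb3 fell by 0.13 and Psmb1 by 0.075 on the log2 scale. The Psmb1 call (adjusted p = 0.0287) was lost without HTL replicate 2 (0.110) or 3 (0.0682), without CON replicate 1 (0.0701) or 3 (0.0796), with no filter on low values (0.0566) and with quantile normalization (0.296). Psmb2 did not pass (-0.18 to 0.003 at 95%) but did as lower without HTL replicate 1 (0.0190), without CON replicate 2 (0.0281) and with size factors (0.00617).

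None of the 3 catalytic genes fell past the threshold as deposited. Psmb5 (chromosome 14, 54614120 to 54617995), whose product has the chymotrypsin-like activity, had 119, 120.0 and 112 FPKM in HTL libraries, against 99.9, 104 and 113 FPKM in CON libraries (log2 fold change 0.15 ± 0.049 SE, adjusted p = 0.0206). It was called higher, but 1 CON library lay above the lowest HTL library. That call was lost without HTL replicate 1 (0.0642) or 2 (0.0705), without CON replicate 1 (0.0852) or 2 (0.0651), with no filter on low values (0.0839) and with size factors (0.299). Psmb6 (chromosome 11, 70525324 to 70527858), with the caspase-like activity, had 188, 187 and 189 FPKM in HTL libraries, against 178, 192 and 195 FPKM in CON libraries, with an interval of -0.076 to 0.070. Psmb7 (chromosome 2, 38588046 to 38643952), with the trypsin-like activity, had 252, 244 and 257 FPKM in HTL libraries, against 253, 256 and 258 FPKM in CON libraries, with an interval of -0.089 to 0.039. The groups overlapped for both, and neither passed the test as deposited. With size factors both passed as lower, at adjusted p = 0.0278 for Psmb6 and 0.0104 for Psmb7.

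Assembly genes moved both ways, 4 lower and 2 higher of 7. Psmg2 (chromosome 18, 67641587 to 67654181), which works in a pair with Psmg1 on the alpha ring, had 18.6, 17.8 and 19.7 FPKM in HTL libraries, against 22.8, 22.5 and 25.0 FPKM in CON libraries (log2 fold change -0.31 ± 0.049 SE, adjusted p = 0.000232). Psmg1 fell by 0.24 on the log2 scale. For both genes every HTL library lay below every CON library. Psmg3, which works in a pair with Psmg4, rose to 22.7 ± 1.59 FPKM in HTL cells, against 18.8 ± 1.99 FPKM in CON cells (0.26, adjusted p = 0.00689), while Psmg4 did not pass (-0.066 to 0.18 at 95%). Among chaperones of the base, Psmd9 (chromosome 5, 123228190 to 123250126) had 20.9, 20.0 and 20.5 FPKM in HTL libraries, against 16.0, 16.0 and 16.9 FPKM in CON libraries (log2 fold change 0.31 ± 0.036 SE, adjusted p = 2.48e-05). Its libraries did not overlap and its call held in all 16 alternatives. Psmd5 fell to 54.8 ± 1.06 FPKM in HTL cells, against 64.5 ± 1.42 FPKM in CON cells (-0.23). Psmd10, also known as gankyrin, fell by 0.14 (adjusted p = 0.0145), a call lost without HTL replicate 2 (0.0651) or CON replicate 2 (0.0653).

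Among the activators and the inhibitor, 2 of 5 genes fell and 1 rose. Psme4 (chromosome 11, 30771775 to 30881150), a large single-chain activator of the core, had 18.6, 19.8 and 19.6 FPKM in HTL libraries, against 24.2, 23.3 and 23.7 FPKM in CON libraries (log2 fold change -0.28 ± 0.038 SE, adjusted p = 7.9e-05). Psme3, the nuclear activator, fell to 54.6 ± 0.74 FPKM in HTL cells, against 64.7 ± 1.98 FPKM in CON cells (-0.24). The groups of both genes were apart. The inhibitor gene Psmf1 (chromosome 2, 151716062 to 151744199) had 15.2, 15.4 and 15.0 FPKM in HTL libraries, against 12.8, 13.6 and 12.7 FPKM in CON libraries (log2 fold change 0.21 ± 0.033 SE, adjusted p = 0.000241), every HTL library above every CON library. Psme1 and Psme2, which neighbour each other on chromosome 14, did not pass as deposited, with intervals of -0.093 to 0.054 and -0.18 to 0.068, and passed as lower with size factors (0.0235 and 0.0449). Outside the particle, Psme3ip1, whose product binds the Psme3 protein, had 28.1, 30.7 and 28.3 FPKM in HTL libraries, against 23.4, 23.8 and 23.7 FPKM in CON libraries (log2 fold change 0.29 ± 0.039 SE, adjusted p = 8.5e-05). The recombination gene Psmc3ip (-0.18 to 0.12) and Psme2b (-0.11 to 0.080) did not pass. Psme2b and Psme2 are near-identical copies, so reads may have been split between them and both values are uncertain.

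**Figure D3:**
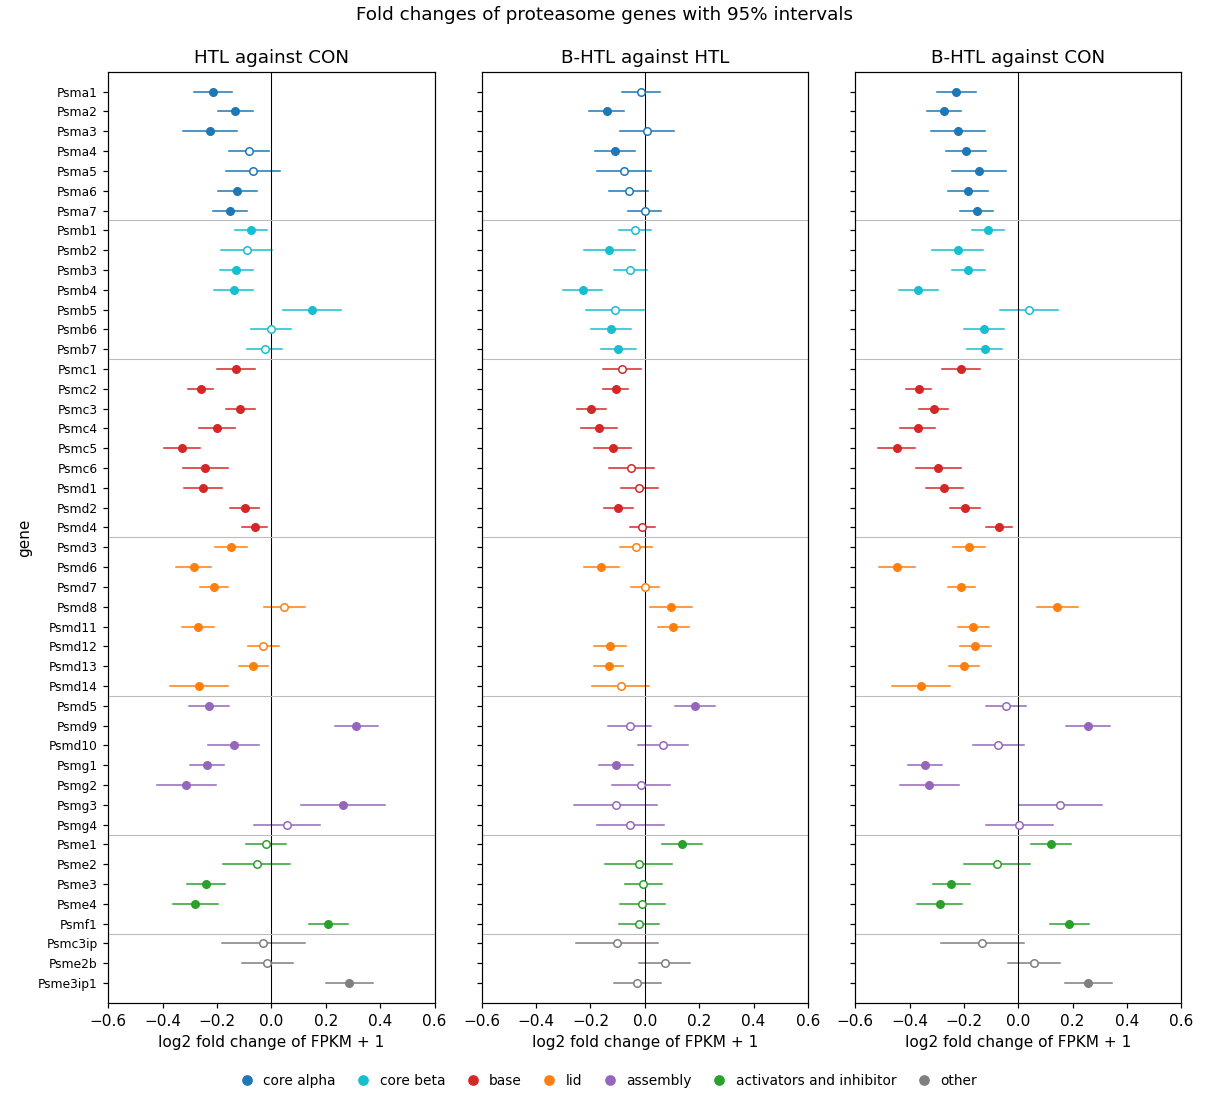
log2 fold changes of FPKM + 1 with 95% intervals for each tested gene in 3 comparisons, coloured by place in the proteasome, with filled points past an adjusted p of 0.05. Base genes are left of 0 and filled in HTL against CON and in B-HTL against CON, and Psmd9 is among the points farthest right in both.

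B-HTL against HTL asks what betaine before the thiolactone changed. Psmb4, of the beta ring, fell most and Psmd5, a chaperone of the base, rose most in B-HTL cells. Of 46 genes 15 fell, 4 rose and 27 did not pass. Over all genes 35.2% passed, 14.5% as higher and 20.6% as lower. The share of proteasome genes that fell was 32.6%, with a median log2 fold change of -0.055 beside -0.024 over all genes. All 3 B-HTL libraries lay below all 3 HTL libraries for 16 genes and above them for 5, beside 27.8% and 19.9% of all genes. The summed level of the core, base and lid genes was 4114, 4028 and 3984 FPKM in B-HTL libraries, against 4300, 4259 and 4271 FPKM in HTL libraries, with no overlap. Of all calls 41.4% were higher as deposited, 55.3% with size factors and 51.8% with quantile normalization. With these scalings 9 and 11 proteasome genes fell and 4 rose in each. The median was -0.025 with size factors, beside 0.002 over all genes.

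Beta genes fell in 4 of 7 and none rose. Psmb4 had 181, 175 and 177 FPKM in B-HTL libraries, against 212, 204 and 209 FPKM in HTL libraries (log2 fold change -0.23 ± 0.033 SE, adjusted p = 0.000365). The highest B-HTL library lay well under the lowest HTL library. Psmb6 had 169, 171 and 177 FPKM in B-HTL libraries, against 188, 187 and 189 FPKM in HTL libraries (log2 fold change -0.12 ± 0.033 SE, adjusted p = 0.014), again with no overlap. Its call was lost with no filter (0.0510) and with quantile normalization (0.0573). Psmb7 had 244, 229.6 and 230.3 FPKM in B-HTL libraries, against 252, 244 and 257 FPKM in HTL libraries (log2 fold change -0.10 ± 0.029 SE, adjusted p = 0.0228). The highest B-HTL library lay just under the lowest HTL library. The Psmb7 call was lost without HTL replicate 1 (0.0633) or 3 (0.0930), without B-HTL replicate 2 (0.0773) or 3 (0.0673), with no filter (0.0631), with size factors (0.127) and with quantile normalization (0.0797). Psmb2 fell as well (adjusted p = 0.0329), with its call lost without HTL replicate 1 (0.126), without B-HTL replicate 1 (0.0765) or 3 (0.0991), with no filter (0.115) and with either scaling (0.113 and 0.0691). Psmb5 had 115, 104 and 107 FPKM in B-HTL libraries, against 119, 120.0 and 112 FPKM in HTL libraries, with overlap and an adjusted p of 0.104. Without B-HTL replicate 1, Psmb5 (0.0385) and Psmb3 (0.0227) passed as lower.

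In the alpha ring Psma2 (chromosome 13, 14613242 to 14625673) fell most, with 186, 177 and 174 FPKM in B-HTL libraries, against 199.5, 198 and 195 FPKM in HTL libraries (log2 fold change -0.14 ± 0.029 SE, adjusted p = 0.00325), and the groups did not overlap. Psma4 also fell (-0.11, adjusted p = 0.0254). That call was lost without HTL replicate 1 (0.0567), 2 (0.0592) or 3 (0.0762), with no filter (0.0781), with size factors (0.122) and with quantile normalization (0.0533). The other 5 alpha genes did not pass, though Psma5 did without B-HTL replicate 1 (0.0223).

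Base genes fell in 5 of 9 and none rose. Psmc3 (chromosome 2, 91054016 to 91059438), an ATPase gene, had 113, 112 and 111 FPKM in B-HTL libraries, against 129.6, 126 and 129 FPKM in HTL libraries (log2 fold change -0.20 ± 0.024 SE, adjusted p = 0.000122). Its B-HTL libraries were close together and all below HTL. Psmc4 (-0.17), Psmc5 (-0.12), Psmc2 (-0.11) and Psmd2 (-0.10) fell less. With size factors Psmc5 (0.0609) and Psmd2 (0.0707) no longer passed. Psmd1, Psmd4, Psmc1 and Psmc6 did not pass.

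The lid moved both ways. Psmd6 had 108, 102 and 104 FPKM in B-HTL libraries, against 114, 121 and 117 FPKM in HTL libraries (log2 fold change -0.16 ± 0.030 SE, adjusted p = 0.00179). Psmd13 (-0.13) and Psmd12 (-0.13) fell too, and the groups did not overlap for any of the 3 genes. Psmd11 (chromosome 11, 80428615 to 80473248), a lid subunit known to aid assembly of the whole particle, rose, with 79.0, 78.4 and 75.7 FPKM in B-HTL libraries, against 72.9, 73.2 and 70.4 FPKM in HTL libraries (log2 fold change 0.10 ± 0.026 SE, adjusted p = 0.0102). All 3 B-HTL libraries were higher. Psmd8 (chromosome 7, 29174187 to 29180673) had 109, 103 and 102 FPKM in B-HTL libraries, against 101, 97.8 and 94.8 FPKM in HTL libraries (log2 fold change 0.10 ± 0.035 SE, adjusted p = 0.0498). It passed the threshold barely. Its call was lost with a pseudocount of 0.1 (0.0508), with no filter (0.126), in a fit of only the 2 groups (0.0555), without HTL replicate 2 (0.109) or 3 (0.174), without B-HTL replicate 1 (0.159) or 2 (0.0680), and without CON replicate 2 (0.0567) or 3 (0.0609). Psmd14 passed as lower without B-HTL replicate 1 (0.0236).

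Among assembly genes, Psmd5 (chromosome 2, 34852087 to 34870965), a chaperone of the base, rose, with 63.2, 64.8 and 59.3 FPKM in B-HTL libraries, against 54.5, 53.8 and 55.9 FPKM in HTL libraries (log2 fold change 0.19 ± 0.034 SE, adjusted p = 0.00164). The groups were apart. Psmg1 (chromosome 16, 95979933 to 95990960) had 26.3, 26.6 and 26.5 FPKM in B-HTL libraries, against 28.3, 28.3 and 29.1 FPKM in HTL libraries (log2 fold change -0.11 ± 0.028 SE, adjusted p = 0.0136), a call lost without HTL replicate 3 (0.0567) and with size factors (0.0746). Psmd9, Psmd10, Psmg2, Psmg3 and Psmg4 did not pass. Of the activators only Psme1 passed. It had 114, 105 and 113 FPKM in B-HTL libraries, against 104, 98.6 and 98.8 FPKM in HTL libraries (log2 fold change 0.14 ± 0.034 SE, adjusted p = 0.00845), and its lowest B-HTL library lay above all HTL libraries. Its partner Psme2 did not pass (-0.15 to 0.10 at 95%).

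B-HTL against CON sets the doubly treated cells beside the controls. The ATPase gene Psmc5 and the lid gene Psmd6 fell most. Each pair of the 3 comparisons shares a group of libraries, so they are not independent. Of 46 genes 33 were lower in B-HTL cells and 5 higher, and 8 did not pass. Over all genes 63.4% passed, 37.7% as higher and 25.7% as lower. The share of proteasome genes that fell was 71.7%, with a median log2 fold change of -0.18 beside 0.043 over all genes. For 32 genes all 3 B-HTL libraries lay below all 3 CON libraries, beside 27.1% of all genes. Of the 31 core, base and lid genes 29 fell, Psmd8 rose and Psmb5 did not pass. The higher share of all calls was 59.5% as deposited, 48.1% with size factors and 52.4% with quantile normalization, and with these scalings 36 and 29 proteasome genes fell and 3 and 5 rose.

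Every base gene fell again, with a median of -0.295. Psmc5 had 133, 128 and 133 FPKM in B-HTL libraries, against 180.2, 181 and 178 FPKM in CON libraries (log2 fold change -0.45 ± 0.031 SE, adjusted p = 3.21e-07). No B-HTL library reached a CON library. Psmc4 (-0.37), Psmc2 (-0.37) and Psmc3 (-0.31), ATPase genes too, followed. Psmd4 had the smallest difference of the base, at -0.071 (adjusted p = 0.0123), and was not called without CON replicate 2 (0.0569) or with quantile normalization (0.782).

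In the lid Psmd6 had 108, 102 and 104 FPKM in B-HTL libraries, against 141, 146 and 143 FPKM in CON libraries (log2 fold change -0.45 ± 0.030 SE, adjusted p = 2.63e-07), the gap between the groups being wider than either group's spread. Psmd14 fell to 84.6 ± 6.92 FPKM in B-HTL cells, against 108 ± 2.80 FPKM in CON cells (-0.36). Psmd8 went the other way, with 109, 103 and 102 FPKM in B-HTL libraries, against 91.3, 97.2 and 95.9 FPKM in CON libraries (log2 fold change 0.14 ± 0.035 SE, adjusted p = 0.00356). Its libraries did not overlap, but the call was lost with size factors (0.0544). Psmd11 had 79.0, 78.4 and 75.7 FPKM in B-HTL libraries, against 87.2, 86.2 and 88.3 FPKM in CON libraries (log2 fold change -0.17), lower in all 3.

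In the core, the alpha genes all fell (median -0.19), led by Psma2, with 186, 177 and 174 FPKM in B-HTL libraries, against 220.5, 219 and 210.2 FPKM in CON libraries (log2 fold change -0.27 ± 0.029 SE, adjusted p = 9.65e-06). For 6 of the 7 all B-HTL libraries lay below all CON libraries. Psma5 was the exception, and its call (adjusted p = 0.0149) was lost without B-HTL replicate 2 (0.0585), without CON replicate 2 (0.0503), with no filter (0.0640) and with quantile normalization (0.0918). Beta genes fell in 6 of 7, led by Psmb4, with 181, 175 and 177 FPKM in B-HTL libraries, against 218, 232 and 239 FPKM in CON libraries (log2 fold change -0.37 ± 0.033 SE, adjusted p = 2.62e-06). The catalytic genes Psmb6 (-0.13) and Psmb7 (-0.12) fell, but neither passed with quantile normalization (0.210 and 0.136), and nor did Psmb1 (0.0983). Psmb5 had 115, 104 and 107 FPKM in B-HTL libraries, against 99.9, 104 and 113 FPKM in CON libraries, with overlap and an interval of -0.068 to 0.15.

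Of 7 assembly genes 2 fell and 1 rose. Psmg1 had 26.3, 26.6 and 26.5 FPKM in B-HTL libraries, against 34.9, 33.4 and 33.2 FPKM in CON libraries (log2 fold change -0.34 ± 0.028 SE, adjusted p = 1.44e-06), with no overlap, and Psmg2 fell by 0.33. Psmd9 rose, with 20.2, 18.8 and 20.0 FPKM in B-HTL libraries, against 16.0, 16.0 and 16.9 FPKM in CON libraries (log2 fold change 0.26 ± 0.036 SE, adjusted p = 8.6e-05), every B-HTL library above every CON library. Psmd5 stood at 62.4 ± 2.78 FPKM in B-HTL and 64.5 ± 1.42 FPKM in CON cells and did not pass (-0.12 to 0.028 at 95%), though it did as lower with size factors (0.0311), as did Psmd10 (0.0237). Psmg3 missed the threshold (adjusted p = 0.0713) and passed as higher without CON replicate 2 (0.0425) or 3 (0.0448).

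Among activators, Psme4 had 19.8, 19.7 and 18.2 FPKM in B-HTL libraries, against 24.2, 23.3 and 23.7 FPKM in CON libraries (log2 fold change -0.29 ± 0.038 SE, adjusted p = 4.98e-05), and Psme3 fell by 0.25. The groups of both were apart. Psmf1 had 14.9, 15.1 and 15.0 FPKM in B-HTL libraries, against 12.8, 13.6 and 12.7 FPKM in CON libraries (log2 fold change 0.19 ± 0.033 SE, adjusted p = 0.00043). Psme1 was higher too, at 111 ± 4.71 FPKM in B-HTL and 102 ± 1.32 FPKM in CON cells (0.12, adjusted p = 0.00896), but not with size factors (0.146). Psme2 passed as lower only without CON replicate 1 (0.0355). Outside the particle Psme3ip1 rose (0.26). Psmc3ip did not pass as tested (-0.28 to 0.020 at 95%) but passed as lower without B-HTL replicate 3 (0.0409), with size factors (0.0334) and with quantile normalization (0.0205).

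Ratios within a library do not depend on a scaling factor between libraries. They are given as descriptions, with no test. The summed FPKM of the 9 base genes over that of the 14 core genes was 0.444, 0.449 and 0.454 in B-HTL libraries, 0.450, 0.453 and 0.451 in HTL libraries, and 0.487, 0.482 and 0.472 in CON libraries. Both treated groups lay below CON in every library. The lid over the core was 0.360, 0.369 and 0.364 in HTL libraries, below the 0.386, 0.385 and 0.377 of CON libraries, while B-HTL libraries, at 0.375, 0.378 and 0.377, overlapped with CON. The beta over the alpha sum was 1.47, 1.48 and 1.51 in B-HTL libraries, 1.54, 1.51 and 1.53 in HTL libraries and 1.41, 1.45 and 1.49 in CON libraries, so HTL lay above CON and B-HTL overlapped with CON. Core, base and lid genes together took 1.03%, 1.02% and 1.02% of the FPKM of B-HTL libraries, 1.08% in each HTL library and 1.17% in each CON library.

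**Figure D4:**
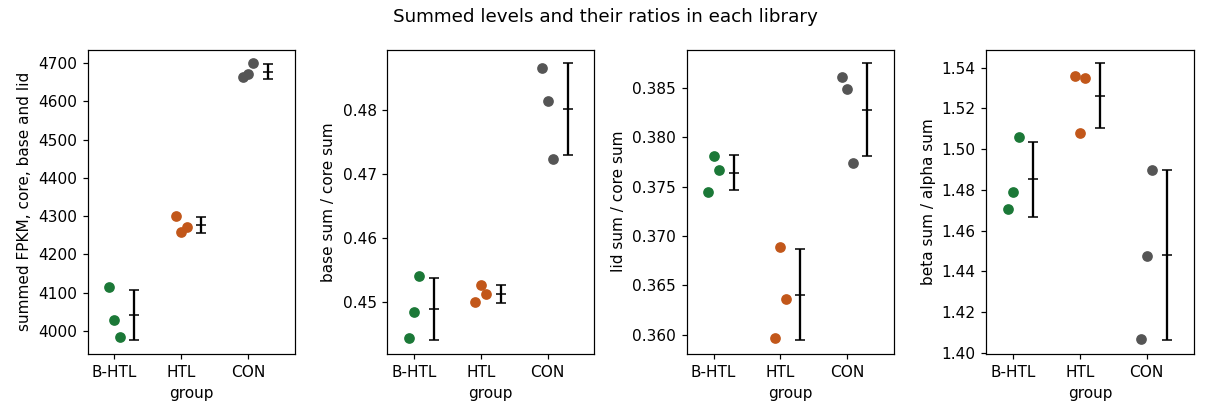
Summed FPKM of the 31 core, base and lid genes and 3 ratios of summed FPKM in each library (points), with mean ± SD of 3 libraries, for B-HTL, HTL and CON cells. The vertical axes do not start at 0. The summed level and the base to core ratio of both treated groups lie below all CON libraries.

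In immune cells the 3 catalytic subunits can be replaced by the interferon-inducible ones. Psmb10, which replaces Psmb7, had 26.9, 28.6 and 26.7 FPKM in HTL libraries, against 41.2, 41.5 and 41.8 FPKM in CON libraries (log2 fold change -0.58 ± 0.039 SE, adjusted p = 4.03e-07). In B-HTL libraries it had 34.5, 33.2 and 36.7 FPKM, above HTL (log2 fold change 0.33, adjusted p = 8.58e-05) and below CON (-0.25). The 3 groups did not overlap. The ratio of Psmb7 to Psmb10 was 7.07, 6.92 and 6.27 in B-HTL libraries, 9.36, 8.54 and 9.63 in HTL libraries and 6.15, 6.17 and 6.16 in CON libraries. Psmb8, which replaces Psmb5, averaged 78.3 ± 3.78 FPKM in B-HTL, 71.0 ± 1.65 FPKM in HTL and 66.3 ± 1.40 FPKM in CON cells. It was higher in B-HTL against CON (0.24, adjusted p = 0.000138) and against HTL (0.14). Its rise in HTL against CON (0.10, adjusted p = 0.0334) was lost without HTL replicate 1 or 2 or CON replicate 1 or 2 (0.118, 0.0528, 0.111 and 0.0533), with no filter (0.0856) and with size factors (0.831). Psmb9, which replaces Psmb6, was the lowest, at 8.82 ± 0.67 FPKM, 8.72 ± 1.25 FPKM and 7.09 ± 0.54 FPKM in B-HTL, HTL and CON cells. Its rise against CON was lost with quantile normalization in both treated groups (adjusted p = 0.0704 in B-HTL and 0.123 in HTL), with no filter (0.0688 and 0.0906) and without CON replicate 2 (0.0601 and 0.0851). It was also lost without B-HTL replicate 1 in B-HTL (0.0542), and without HTL replicate 1 (0.0889) or with size factors (0.0945) in HTL.

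**Figure D5:**
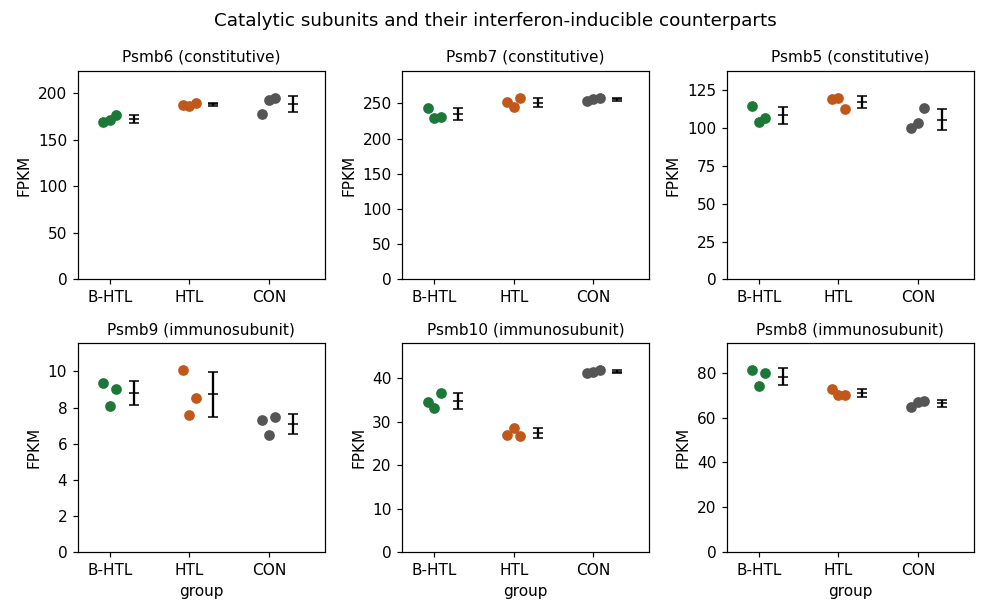
FPKM of the 3 constitutive catalytic genes (top) and of the interferon-inducible genes that can replace them (bottom) in each library (points), with mean ± SD of 3 libraries, for B-HTL, HTL and CON cells. Psmb10 is lowest in HTL libraries, at 26.7 to 28.6 FPKM, with B-HTL between HTL and CON, while Psmb6 and Psmb7 are lowest in B-HTL libraries.

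Related genes outside the naming rule were read from lists. Of 3 subunit and assembly genes named otherwise, Adrm1, a ubiquitin receptor of the base, fell in HTL cells to 86.3 ± 1.44 FPKM, against 107 ± 2.61 FPKM in CON cells (-0.31), and in B-HTL cells to 90.6 ± 4.32 FPKM (-0.24 against CON). Pomp, the chaperone that matures the core, had a mean level above the median of the alpha, base and lid genes. It stood at 144 ± 8.50 FPKM in B-HTL cells, against 162 ± 2.30 FPKM in HTL cells (-0.17, adjusted p = 0.0109, and 0.0548 with no filter). In CON cells Pomp had 151 ± 7.72 FPKM, and neither treated group passed against CON as deposited. HTL passed as higher with quantile normalization (0.00659), with only the 2 groups (0.0302) and without B-HTL replicate 1 (0.0284) or 3 (0.0467). B-HTL passed as lower with size factors (0.0277) and without B-HTL replicate 1 (0.0249) or CON replicate 1 (0.0363). Sem1, a small lid subunit, did not pass in any of the 3 comparisons as deposited, and passed as lower in B-HTL against HTL without B-HTL replicate 1 (0.0252).

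Of 16 proteasome-associated genes 8 were lower and 4 higher in HTL against CON, 2 lower and 4 higher in B-HTL against HTL, and 8 lower and 4 higher in B-HTL against CON. Beside these counts stand the shares of all genes called, 20.4% lower and 39.8% higher, 20.6% and 14.5%, and 25.7% and 37.7%. Both deubiquitinases that bind the base were lower. Uchl5 stood at 21.6 ± 0.69 FPKM in B-HTL, 24.1 ± 0.44 FPKM in HTL and 28.8 ± 0.99 FPKM in CON cells, and Usp14 at 24.9 ± 1.35 FPKM in B-HTL, 26.0 ± 0.56 FPKM in HTL and 31.4 ± 0.85 FPKM in CON cells. Both passed as lower against CON in both treated groups. Zfand2a, a stress-induced zinc finger gene, was higher in HTL cells, at 13.1 ± 0.60 FPKM, against 10.6 ± 0.57 FPKM in CON cells (0.28).

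Of 11 tested regulators of proteasome genes 5 were higher and 2 lower in HTL against CON, 3 and 1 in B-HTL against HTL, and 6 and 1 in B-HTL against CON. In HTL against CON these counts are near the 39.8% and 20.4% of all genes, and the shares of all genes in the other comparisons were 14.5% higher and 20.6% lower, and 37.7% and 25.7%. Nfe2l1 had 100.1, 97.1 and 98.2 FPKM in HTL libraries, against 113, 108 and 111 FPKM in CON libraries (log2 fold change -0.17 ± 0.026 SE, adjusted p = 0.000237), every HTL library lower. In B-HTL libraries it had 108, 108 and 112 FPKM, higher than in HTL (log2 fold change 0.15 ± 0.026 SE, adjusted p = 0.00145) and overlapping with CON, from which it did not differ past the threshold (-0.077 to 0.038 at 95%), except with size factors, where it was lower (adjusted p = 0.0379). Its partner gene Mafg had 16.8, 16.2 and 17.8 FPKM in B-HTL libraries, against 13.7, 13.7 and 14.6 FPKM in HTL libraries (0.25). Nfe2l2, the oxidative stress factor of the same family, rose to 53.9 ± 1.37 FPKM in HTL cells, against 46.3 ± 2.43 FPKM in CON cells (0.21). In B-HTL cells Nfe2l2 stood at 58.0 ± 1.83 FPKM. It did not pass against HTL as deposited, but passed as higher with size factors (adjusted p = 0.0290), quantile normalization (0.0250) and some other alternatives. Bach1, a repressor at the same elements, rose to 7.42 ± 0.25 FPKM in HTL cells, against 4.89 ± 0.23 FPKM in CON cells (0.52), and stood at 7.24 ± 0.30 FPKM in B-HTL cells (0.49 against CON).

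Of 6 ubiquitin and activating enzyme genes 2 were higher and 2 lower in HTL against CON, 1 higher in B-HTL against HTL, and 2 higher and 2 lower in B-HTL against CON. The polyubiquitin gene Ubb passed as higher in HTL cells, at 665 ± 9.90 FPKM, against 599 ± 14.2 FPKM in CON cells (adjusted p = 0.00181), but not with size factors (0.134). Of 7 genes of VCP, the segregase that hands substrates to the proteasome, and its cofactors 1 was higher and 2 lower in HTL against CON, 1 and 2 in B-HTL against HTL, and 0 and 2 in B-HTL against CON. For lists this short the counts say little beside the shares of all genes, which were 39.8% higher and 20.4% lower, 14.5% and 20.6%, and 37.7% and 25.7% in these 3 comparisons. Ufd1 fell to 22.7 ± 0.47 FPKM in B-HTL cells, against 26.0 ± 1.27 FPKM in HTL cells (-0.19). Vcp stood at 215 ± 8.22 FPKM in B-HTL, 233 ± 5.27 FPKM in HTL and 246 ± 7.29 FPKM in CON cells (-0.19 in B-HTL against CON). It was lower in B-HTL against HTL (-0.12), but not with size factors (adjusted p = 0.0759) or with no filter (0.0617). The counts depend on scaling. In HTL against CON with size factors Vcp (0.00161), Ufd1 (0.0122), Nsfl1c (0.0447) and Ubxn1 (0.0333) passed as lower, and Faf2 was no longer higher.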

How the data were processed

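Gene expression of HT-22 cells was measured by RNA sequencing in 9 libraries. Per the file headers, the authors deposited 1 table of FPKM per gene and library, and per the submitters' processing notes they used fastp, HISAT2, HTSeq and R 3.2.0 with the mouse build mm10. Counting options and strand handling are not stated by those sources, so values of overlapping or near-identical genes are uncertain.

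Read totals were recovered from whole-number steps of low FPKM values, and all 46 tested genes then had whole reads within 0.05. The 11012 genes averaging 0.5 FPKM or more entered limma 3.58.1 (R 4.3.3) as log2(FPKM + 1), using group means, an intensity trend and 1 spread for the 3 groups (6 residual degrees of freedom). This scale understates the fold change of low genes. P-values are two-sided and adjusted by Benjamini-Hochberg over all genes within a comparison, and 0.05 was the threshold. In data simulated for HTL against CON with 10839 genes, 90.0% of 100 genes changed by 0.5 (log2) were recovered. Of 100 changed by 1, 97.0% were, and 5 calls were false. Smaller changes were not simulated, and those of the proteasome genes, at -0.448 to 0.312 as deposited, are all smaller. Far fewer genes were changed there than passed in the data, so these shares do not give the recovery of the changes reported here. An exact permutation test of 3 libraries against 3 cannot go below p = 0.1. Nothing in the labels ties replicates to separate cultures, and the replicate spread behind the p-values may therefore be technical.

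The genes and lists were chosen with earlier results of these data known, so lists are described by counts and medians with no test of their own. Values per library are given for Psmb5, Psmb6 and Psmb7 and, in each part of the particle and each comparison, for the largest rise and fall past the threshold. Other genes are named from the lists of subunit and assembly genes named otherwise, proteasome-associated genes, regulators, ubiquitin genes, VCP and cofactors, and interferon-inducible subunits. Paaf1 and Psma8 were not analysed here. Some genes of these lists are counted but not reported here by name. Positions and promoters come from RefSeq on GRCm38. Alternatives were a pseudocount of 0.1, no filter, a filter at 5 FPKM, median-of-ratios size factors, quantile normalization, only the 2 groups compared, the replicate number as a block and leaving out each library.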

Additional observations from a re-analysis of the deposited data

How the results depend on the processing

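Of 91 calls of proteasome genes over the 3 comparisons, 71 passed the threshold under all 16 alternatives. Of 2208 values of single genes under alternatives 71 lost and 28 gained a call, and no called value changed sign. In HTL against CON the median log2 fold change of the proteasome genes was -0.215 with size factors and -0.096 with quantile normalization. Over all genes tested it was -0.005 and 0.013 with these scalings, and 0.069 as deposited. In B-HTL against HTL 9 genes fell with size factors, at a median of -0.025 beside 0.002 over all genes. In B-HTL against CON 3 genes rose with size factors, and the median was -0.241 with size factors and -0.128 with quantile normalization. Over all genes it was -0.005 and 0.013 there, and 0.043 as deposited. Size factors were 1.023 to 1.034 in HTL, 1.003 to 1.015 in B-HTL and 0.961 to 0.973 in CON libraries. Every gene of a library was divided by the same factor, so all genes shifted with the proteasome genes. Why the libraries differ in these factors was not tested. Leaving out 1 library each gave 26 to 30 lower and 4 to 5 higher genes in HTL against CON (median -0.128 to -0.113), 12 to 18 and 3 to 4 in B-HTL against HTL (median -0.080 to -0.047), and 31 to 34 and 5 to 6 in B-HTL against CON (median -0.200 to -0.178). Libraries sharing a replicate number did not deviate together (r = -0.073 to 0.059), and not every library correlated best with its own number. With the replicate number as a block 28, 15 and 34 genes were lower and 5, 3 and 5 higher in HTL against CON, B-HTL against HTL and B-HTL against CON, with Psmb1 (adjusted p = 0.0505) lost in the first, Psmd8 (0.0698) in the second and Psmc3ip (0.0357) gained in the third. Counting error gave an SD of at most 4.23% of a tested gene's level in a library.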
